A study of Saccharomyces cerevisiae with 15 samples.

Results

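Aminoacyl-tRNA synthetases are the enzymes that load each tRNA with its amino acid. The 36 genes described here are the yeast synthetases and 1 cofactor, taken from the 6600 genes of the count table by a list of systematic names: 22 genes for the cytosolic enzymes, among them 5 whose product also serves the mitochondria (ALA1, VAS1, GRS1, HTS1 and CRS1) and the cofactor ARC1, and 14 genes for enzymes of the mitochondria alone. All genes of this list are nuclear and are transcribed by RNA polymerase II. They were compared as 2 groups across 5 strains.

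A yeast cell runs 2 sets of charging reactions. The cytosolic enzymes supply the ribosomes that read nuclear mRNA, whereas the mitochondrial enzymes are made in the cytosol, imported, and supply the ribosomes that read the few mRNAs of mitochondrial DNA. Uncharged tRNA activates the kinase Gcn2, which raises translation of the transcription factor Gcn4, and genes for some cytosolic synthetases are known targets of Gcn4. RNA polymerase III makes the tRNAs, the substrates of all these enzymes.

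The study asked how mRNA levels respond when RNA polymerase III is poorly assembled and when 2 overdose suppressors are present. RNA-seq was done on poly(A)-selected RNA of 5 strains, with 3 biological replicates per strain. Every strain carried the chromosomal rpc128-1007 mutation in the subunit Rpc128, in the background MJ15-9C (his3, leu2, lys2-1, ura3-1 and ade2-1 with SUP11), and they differed by plasmid. rpc128-1007 held an empty vector. [PRT1] held a 2μ multicopy plasmid with PRT1, a subunit gene of the translation initiation factor eIF3, whose insert also carries the 3′ part of PRE10, and it is not stated which of a URA3 and a LEU2 version was used. [RBS1] and [RBS1-R3H] held a LEU2 2μ plasmid with RBS1, which encodes an RNA-binding protein, or with the allele in which conserved residues of its R3H domain were changed to alanine. The control, wt, was the same mutant with the native RPC128 gene on a centromeric plasmid. It therefore carries the mutant allele too. Cultures were grown overnight in selective medium, without uracil or without leucine, and then in rich YPD medium, without selection, to log phase. The paper does not list which strain had which overnight medium. Apart from [RBS1] and [RBS1-R3H], which share a marker, strains can differ in plasmid type, marker and overnight medium. In those comparisons these cannot be told apart from the named gene. As in any bulk sample, RNA per cell and the make-up of the culture cannot be told apart.

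The promoters of the 2 groups were searched for a feature that the choice of genes did not use. The window from 250 bases before to 50 bases after each start codon was searched on both strands for TGACTC, the core letters of the Gcn4 recognition sequence, in the RefSeq R64 genome. The letters stood in the windows of 10 of the 22 cytosolic genes (45.5%) and of 0 of the 14 mitochondrial genes, against 479 of 6007 protein-coding genes (7.97%). In a window that began 500 bases before the start codon, they stood in 12 of 22 cytosolic (54.5%) and 2 of 14 mitochondrial genes (14.3%), against 14.3% of 6006 genes. Within 250 bases, the longer TGACTCA, which contains TGACTC, stood in 3 of 22 cytosolic, 0 of 14 mitochondrial and 2.73% of all windows. TGANTCA, which also contains TGACTCA, stood in 4 of 22 (18.2%) and 3 of 14 (21.4%), against 7.32%. Of the 14 cytosolic genes that were higher in [RBS1-R3H] than in wt, 7 held TGACTC within 250 bases, and 3 of the other 8 did. Those of the 14 without it were DPS1, CDC60, DED81, HTS1, TYS1, MES1 and GRS1. The stretches around the match are shown for 5 of the 10 cytosolic genes with a match. They are 30 bases 5′ to 3′ on the strand of the gene, with TGACTC or its complement GAGTCA in capitals.
KRS1 (chrIV:525294-525323, plus strand, 129 bases before the start codon): tgaatgatgaaaTGACTCttaatgaacttc
YDR341C (chrIV:1153809-1153838, minus strand, 195 bases before the start codon): aaagtgtctaatGAGTCAgttatttctttc
ILS1 (chrII:84346-84375, minus strand, 97 bases before the start codon): tcgaaacaatgaTGACTCttaagcatgaaa
YHR020W (chrVIII:143802-143831, plus strand, 177 bases before the start codon): taagcgatgcttGAGTCActgaatgtcttg
ALA1 (chrXV:949139-949168, minus strand, 42 bases before the start codon): gattaaggaactTGACTCtttctttcaaga
In YDR341C and YHR020W the match is part of TGACTCA, read on the opposite strand. The match of YHR020W lies in the 437 bases of chromosome VIII (143559 to 143995) that part it from the divergent DED81. The other matches were those of VAS1, THS1 and CRS1, that of ARC1, 1 base before its start codon, and that of GLN4, 24 bases inside its coding sequence. A match is a description of the letters and not a measured binding site.

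The total count per library lay between 7365923 and 12164321. Levels are given as CPM, the count of a gene divided by the scaled library total. A value after ± is the SD beside a mean level and the standard error beside a log2 fold change. In all, 5851 of the 6600 genes, all 36 members among them, passed the filter on low counts. A gene is called when its edgeR quasi-likelihood test between 2 strains gave a p, adjusted over the 5851 genes by the Benjamini-Hochberg method, below 0.05. The plasmid genes followed the labels: PRT1 was at 4818 ± 324 CPM in [PRT1] and 632 ± 79.4 in rpc128-1007 (SD, n = 3 each), RBS1 at 4410.1 ± 179.6 in [RBS1], 2986 ± 833 in [RBS1-R3H] and 100.3 ± 31.2 in rpc128-1007, and RET1, the gene of Rpc128, at 207 ± 20.4 in rpc128-1007 and 448 ± 21.6 in wt. Genes of whole chromosomes stood apart in 2 strains. In [PRT1], the median gene of chromosome VIII lay 0.97 above wt on the log2 scale, and 100% of its 280 tested genes were above. In rpc128-1007, the median gene lay 0.56 above wt on chromosome XI, 0.23 on VIII and 0.19 on I. The medians of the other 15 chromosomes lay between -0.04 and 0.00 in [PRT1] against wt, and those of the other 13 between -0.03 and 0.03 in rpc128-1007 against wt. DED81, YHR020W, MSR1 and DIA4 lie on VIII and MST1 on XI, and their values are given with this in view. DNA copy number was not measured in these files.

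**Figure D1:**
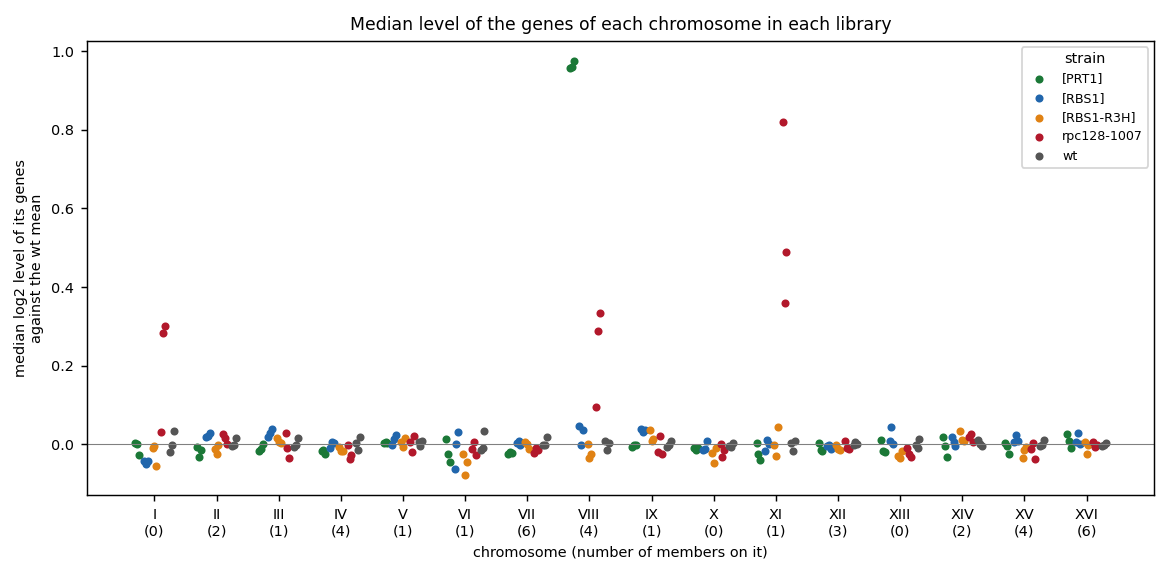
Median log2 level of the tested genes of each chromosome in each of the 15 libraries, relative to the mean of the 3 wt libraries; each point is 1 library, colours are strains, and the number of members on a chromosome is in brackets. The 3 [PRT1] libraries stand between 0.957 and 0.974 on chromosome VIII, and the 3 rpc128-1007 libraries between 0.360 and 0.819 on XI.

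The cytosolic genes were far more abundant than the mitochondrial ones. In wt, the median cytosolic gene was at 294 CPM per kilobase of coding sequence and the median mitochondrial gene at 23.9, and over all strains these medians lay between 294 and 368 and between 19.1 and 27.8. KRS1 (YDR037W), the lysyl-tRNA synthetase, had the highest level per kilobase of the cytosolic group in each of the 5 strains. AIM10, a putative mitochondrial prolyl-tRNA synthetase, had the lowest in the mitochondrial group in every strain. The counts behind these values lay between 2128 and 28708 per library for cytosolic genes and between 143 and 1195 for mitochondrial genes. The median standard error of the log2 fold changes was 0.09 for the cytosolic genes and 0.15 for the mitochondrial genes.

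Summed over each group, the strains fell into different orders. The 22 cytosolic genes together held 13121 ± 487 CPM in [PRT1], 13172 ± 985.1 in [RBS1], 18162 ± 1535 in [RBS1-R3H], 15271 ± 1528 in rpc128-1007 and 12459 ± 300 in wt (SD, n = 3 each). The 14 mitochondrial genes together held 547 ± 37.2 CPM in [PRT1], 462 ± 47.7 in [RBS1], 516 ± 112 in [RBS1-R3H], 742 ± 61.9 in rpc128-1007 and 606 ± 38.6 in wt. These sums include DED81, YHR020W, MSR1 and DIA4 of chromosome VIII and MST1 of XI. In [PRT1] and wt, mean levels were 1050 and 607 CPM for DED81 and 1015 and 525 for YHR020W. They were 117 and 69.1 CPM for MSR1 and 35.5 and 25.7 for DIA4. The sums were not corrected for the shifted chromosomes, and the place of [PRT1] in either order can rest on these genes. By strain means, 15 of 22 cytosolic genes were highest in [RBS1-R3H], whereas 12 of 14 mitochondrial genes were highest in rpc128-1007 and the other 2, MSR1 and DIA4, in [PRT1]. MSR1 and DIA4 lie on chromosome VIII, as do DED81 and YHR020W, the cytosolic genes highest in [PRT1]. MST1, on XI, is among the 12. The share of all tested genes that was highest in each strain was not computed. The libraries of [RBS1-R3H] were spread in both groups. Its replicate 2 had the highest cytosolic sum of all libraries (19767 CPM) and the lowest mitochondrial sum (409 CPM), while its replicate 3 had 16707 and 632 CPM.

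**Figure D2:**
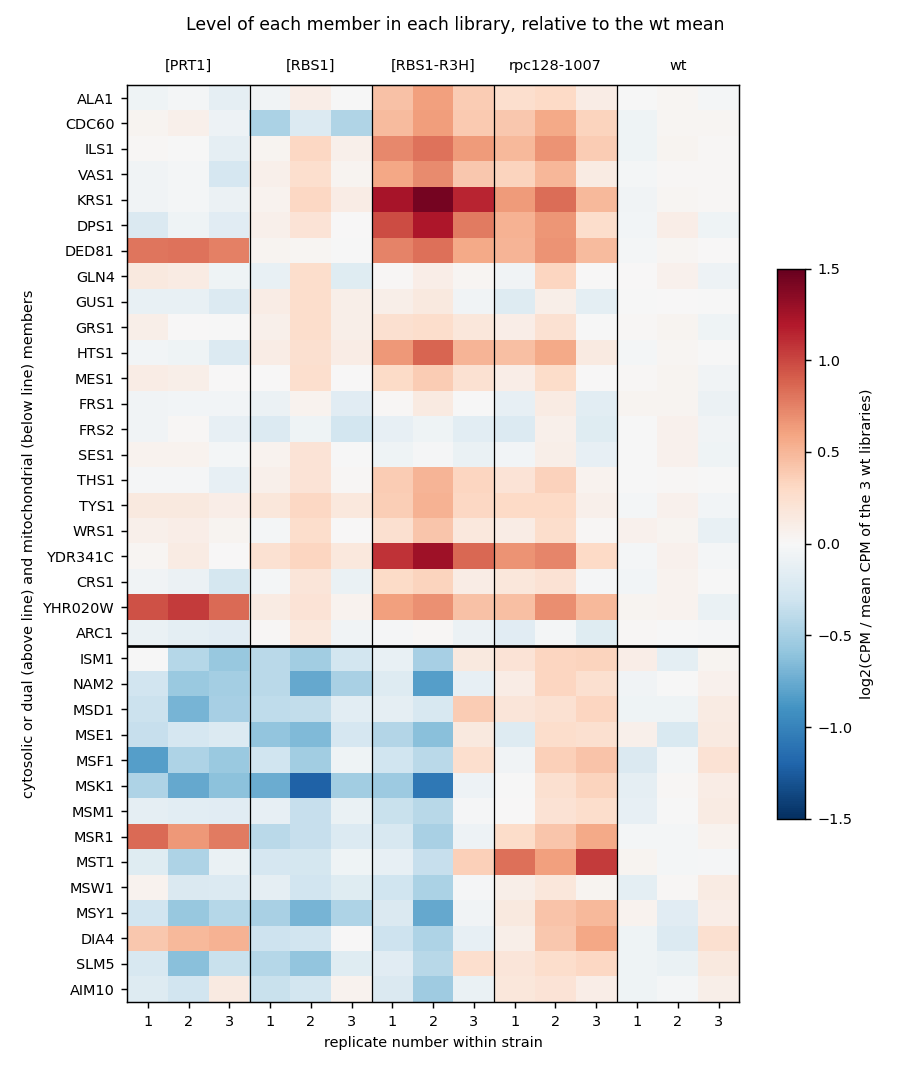
Log2 ratio of the CPM of each of the 36 members in each library to the mean of the 3 wt libraries, with cytosolic or dual enzymes and ARC1 above the line and mitochondrial enzymes below it; columns are replicates within strains. KRS1, DPS1 and YDR341C are highest in [RBS1-R3H], most mitochondrial rows are above wt in rpc128-1007 and below it in [RBS1], and DED81, YHR020W, MSR1 and DIA4 stand out in [PRT1].

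The effect of the mutation was read from rpc128-1007 against wt. Of the cytosolic genes, 9 of 22 were called higher in the mutant and 0 lower, with a median log2 fold change of 0.21, while 18.4% of all tested genes were called in this comparison, 12.7% as higher and 5.62% as lower, with an all-gene median of 0.01. Of the mitochondrial genes, 2 of 14 were called, both higher, and the median was 0.25. Fold changes of all 14 were above 0. All 3 rpc128-1007 libraries lay above all 3 of wt in 12 cytosolic and 8 mitochondrial genes and below them in 1 and 0, where 20.2% of all genes lay above and 14% below (34.2% together).

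KRS1 was the cytosolic gene with the largest difference. Its level was 1178, 1199.6 and 1150.4 CPM in [PRT1], 1273, 1519 and 1323 in [RBS1], 2881, 3312 and 2708 in [RBS1-R3H], 1900.5, 2191 and 1709 in rpc128-1007, and 1178, 1250.4 and 1244 in wt. The mutant libraries lay above those of wt without overlap, by a log2 fold change of 0.66 ± 0.10 (adjusted p = 0.000344), or 1.58-fold. For YDR341C, the arginyl-tRNA synthetase, the level was 580.0, 615 and 570.3 CPM in [PRT1], 662, 707 and 634 in [RBS1], 1205, 1371 and 1033 in [RBS1-R3H], 902, 940.0 and 695 in rpc128-1007, and 553, 593 and 553 in wt. The rpc128-1007 and wt libraries did not overlap, and the log2 fold change between them was 0.58 ± 0.11 (adjusted p = 0.00263). ILS1 (YBL076C), the isoleucyl-tRNA synthetase, had 523, 517 and 472 CPM in [PRT1], 533, 644 and 543 in [RBS1], 852, 909 and 803 in [RBS1-R3H], 725, 825 and 673 in rpc128-1007, and 496, 533 and 524 in wt. It too lay higher in every mutant library, with a log2 fold change of 0.52 ± 0.09 (adjusted p = 0.00131). DPS1 (YLL018C), the aspartyl-tRNA synthetase, had 476, 532 and 491 CPM in [PRT1], 583, 637 and 555 in [RBS1], 1091, 1285 and 949 in [RBS1-R3H], 798, 879 and 668 in rpc128-1007, and 538, 595 and 531 in wt. The mutant libraries were spread more widely than those of wt but did not overlap them, and the log2 fold change was 0.50 ± 0.12 (adjusted p = 0.00769).

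The neighbours DED81 and YHR020W, on the chromosome that was shifted in the mutant, were higher as well. DED81 (YHR019C), the asparaginyl-tRNA synthetase, had 1056, 1066 and 1027 CPM in [PRT1], 623, 622 and 604 in [RBS1], 1015, 1073 and 899 in [RBS1-R3H], 868, 968 and 845 in rpc128-1007, and 594, 620.0 and 608 in wt. YHR020W, the prolyl-tRNA synthetase, had 1015, 1085 and 945 CPM in [PRT1], 574, 604 and 547 in [RBS1], 807, 843 and 715 in [RBS1-R3H], 715, 851 and 735 in rpc128-1007, and 542, 544 and 489 in wt. In both, rpc128-1007 lay above wt without overlap, and [PRT1] lay above every other strain except that [RBS1-R3H] overlapped it in DED81. The log2 fold changes of rpc128-1007 over wt were 0.56 ± 0.07 (adjusted p = 0.000117) for DED81 and 0.55 ± 0.09 (adjusted p = 0.000645) for YHR020W. With the chromosome medians of each library removed, they were 0.31 (adjusted p = 0.02005) and 0.30 (adjusted p = 0.04062). The remaining cytosolic calls were CDC60 (leucine) at 0.44, HTS1 (histidine) at 0.39 and VAS1 (valine) at 0.33. The calls of HTS1 and VAS1 were each lost without 5 of the 6 libraries, left out in turn, whereas the 7 others held without any 1 library.

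Both called mitochondrial genes lie on shifted chromosomes. MST1 (YKL194C), the mitochondrial threonyl-tRNA synthetase, had 27.4, 22.6 and 28.9 CPM in [PRT1], 26.1, 25.8 and 29.7 in [RBS1], 28.5, 24.5 and 39.96 in [RBS1-R3H], 55.2, 47.6 and 64.1 in rpc128-1007, and 32.1, 30.5 and 30.6 in wt. The mutant stood above all other strains, with a log2 fold change over wt of 0.84 ± 0.16 (adjusted p = 0.00194). With chromosome medians removed it was 0.30 (adjusted p = 0.2348). MSR1 (YHR091C), the mitochondrial arginyl-tRNA synthetase, had 125, 109 and 118 CPM in [PRT1], 52.1, 54.5 and 59.8 in [RBS1], 58.6, 49.4 and 65.7 in [RBS1-R3H], 83.6, 91.9 and 102 in rpc128-1007, and 67.8, 67.9 and 71.7 in wt. Its log2 fold change over wt was 0.42 ± 0.10 (adjusted p = 0.0108), and 0.18 (adjusted p = 0.2395) with chromosome medians removed. No mitochondrial gene of another chromosome was called by edgeR. With the replicate number as a block, 4 mitochondrial genes were called, now with MSY1 at 0.37 (adjusted p = 0.04265) and DIA4, on chromosome VIII, at 0.37 (adjusted p = 0.01371), and ALA1 at 0.22 (adjusted p = 0.01004), THS1 at 0.20 (adjusted p = 0.01699) and TYS1 at 0.23 (adjusted p = 0.01005) joined the cytosolic calls. Calls over all genes rose with the block as well, to 1000 higher and 616 lower from 745 and 329. Without a block, DIA4 was at 0.12 (adjusted p = 0.5797) once chromosome medians were removed.

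**Figure D3:**
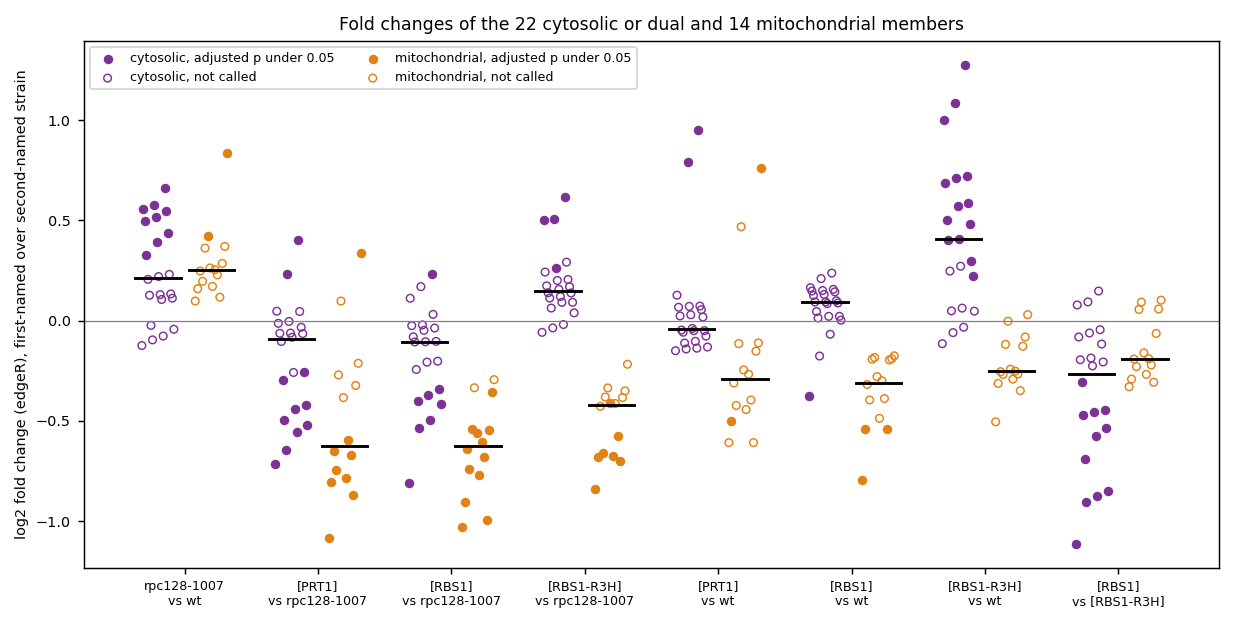
Log2 fold change of each member in each of the 8 comparisons, cytosolic or dual members in purple and mitochondrial members in orange; filled points have an edgeR adjusted p under 0.05 and black lines are group medians. The cytosolic median is 0.41 in [RBS1-R3H] against wt and the mitochondrial median is -0.62 in both [PRT1] and [RBS1] against rpc128-1007.

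The mutant with the altered RBS1 allele was set against wt. [RBS1-R3H] had the most cytosolic calls of the 8 comparisons: 14 of 22 genes were higher than in wt and 0 lower, with a median of 0.41, against 22.9% of all genes called, 13.4% as higher and 9.55% as lower, and an all-gene median of -0.02. KRS1 had the largest difference, 1.28 ± 0.10 (adjusted p = 3.54e-07), or 2.42-fold, and the lowest of its [RBS1-R3H] libraries lay far above the highest of wt. YDR341C differed by 1.09 ± 0.11 (adjusted p = 6.73e-06), DPS1 by 1.00 ± 0.12 (adjusted p = 1.89e-05) and ILS1 by 0.72 ± 0.09 (adjusted p = 4.76e-05). The other calls were DED81 (0.71), HTS1 (0.69), YHR020W (0.59), VAS1 (0.57), CDC60 (0.50), ALA1 (alanine, 0.48), THS1 (threonine, 0.41), TYS1 (tyrosine, 0.40), MES1 (methionine, 0.30) and GRS1 (glycine, 0.23). The libraries of all 14 did not overlap between the strains. Left out in turn, 5 of the 6 libraries ended the call of GRS1 (adjusted p up to 0.144), all but [RBS1-R3H] replicate 3, and that of MES1 ended without [RBS1-R3H] replicate 2 or wt replicate 3. All 3 [RBS1-R3H] libraries lay above all 3 of wt in 16 cytosolic and 0 mitochondrial genes and below them in 1 and 3, where 22.8% of all genes lay above and 21.3% below (44.1% together). No mitochondrial gene was called by edgeR (0 by DESeq2 and 0 by limma-voom also), 3 of 14 had an unadjusted p under 0.05, and the median was -0.25. Without [RBS1-R3H] replicate 3, 5 mitochondrial genes were called, all lower.

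Against rpc128-1007 itself, the calls of the 2 groups in [RBS1-R3H] stood on opposite sides. Here 4 of 22 cytosolic genes were higher and 0 lower (median 0.15), and 7 of 14 mitochondrial genes were lower and 0 higher (median -0.42), while 11.5% of all genes were called, 4.67% as higher and 6.8% as lower. All 3 [RBS1-R3H] libraries lay above all 3 of rpc128-1007 in 5 cytosolic and 0 mitochondrial genes and below them in 0 and 10, where 11.5% of all genes lay above and 12.4% below (23.9% together). The cytosolic calls were KRS1 at 0.62 ± 0.10 (adjusted p = 0.0016), YDR341C at 0.51 ± 0.11 (adjusted p = 0.00984), DPS1 at 0.50 ± 0.11 (adjusted p = 0.0116) and ALA1 at 0.26 ± 0.08 (adjusted p = 0.0392). ALA1 (YOR335C) had 434, 446 and 413 CPM in [PRT1], 439, 487 and 451 in [RBS1], 617, 698 and 591 in [RBS1-R3H], 539.7, 559 and 490.1 in rpc128-1007, and 452, 465 and 447 in wt. Its 3 [RBS1-R3H] libraries were the highest of all 15. The largest mitochondrial differences were those of MST1 at -0.84 ± 0.16 (adjusted p = 0.00375), MSK1 at -0.70 ± 0.21 (adjusted p = 0.0403), MSR1 at -0.68 ± 0.10 (adjusted p = 0.00139) and MSY1 at -0.68 ± 0.15 (adjusted p = 0.0116). DIA4, NAM2 and MSM1 were also lower, at -0.66, -0.58 and -0.41. With chromosome medians removed, 4 mitochondrial genes were called: MST1 was then at -0.31 (adjusted p = 0.325) and DIA4 at -0.41 (adjusted p = 0.08093), MSR1 kept its call at -0.43 (adjusted p = 0.01637), and DED81 gained one at 0.40 (adjusted p = 0.01097). Of MSK1, MSY1, NAM2 and MSM1, which lie on other chromosomes, not all kept their calls. Single libraries decided several of these calls. Without [RBS1-R3H] replicate 2, 2 cytosolic and 2 mitochondrial genes were called, and without its replicate 3, 7 and 12. Without rpc128-1007 replicate 3 there were 2 and 3, and without its replicate 2, 4 mitochondrial calls were left. KRS1, YDR341C, MSR1 and MST1 were called whichever library was left out.

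The native RBS1 gene was set against the altered allele in [RBS1] and [RBS1-R3H]. These strains also differed in RBS1 mRNA, 1.48-fold higher in [RBS1] with no overlap of libraries (0.56 ± 0.20, adjusted p = 0.0514), so that the allele and its level cannot be told apart. Of the cytosolic genes, 11 of 22 were called lower with the native gene and 0 higher, with a median of -0.27, against 27.9% of all genes called, 13.5% as higher and 14.4% as lower, and an all-gene median of 0.01. All 3 [RBS1] libraries lay above all 3 of [RBS1-R3H] in 1 cytosolic and 0 mitochondrial genes and below them in 12 and 0, where 21.6% of all genes lay above and 21% below (42.6% together). KRS1 was at -1.11 ± 0.10 (adjusted p = 1.59e-06), DPS1 at -0.91 ± 0.12 (adjusted p = 4.67e-05), CDC60 at -0.87 ± 0.09 (adjusted p = 7.34e-06) and YDR341C at -0.85 ± 0.11 (adjusted p = 7.12e-05). CDC60 (YPL160W), the leucyl-tRNA synthetase, had 524, 536 and 481 CPM in [PRT1], 365, 439 and 371 in [RBS1], 707, 782 and 664 in [RBS1-R3H], 670.2, 750.4 and 640.1 in rpc128-1007, and 487, 517 and 519 in wt. It was the one cytosolic gene whose [RBS1] libraries all lay below those of every other strain. DED81, ILS1, HTS1, ALA1, YHR020W, VAS1 and THS1 had log2 fold changes between -0.69 and -0.31, and THS1 lost its call without [RBS1] replicate 3. None of the 14 mitochondrial genes was called by edgeR (0 by DESeq2 and 0 by limma-voom also), 1 had an unadjusted p under 0.05, and the median was -0.19. With the replicate block, MSD1 was lower at -0.32 (adjusted p = 0.042), and MES1 (-0.21, adjusted p = 0.01542), TYS1 (-0.19, adjusted p = 0.01896), WRS1 (-0.19, adjusted p = 0.03748), CRS1 (-0.23, adjusted p = 0.01293) and SES1 (0.15, adjusted p = 0.04181) passed the threshold as well. Calls over all genes rose with the block as well, to 1060 higher and 1029 lower from 788 and 842. Without [RBS1-R3H] replicate 2, 5 mitochondrial genes were lower.

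Most mitochondrial genes were lower in the mutant with extra RBS1. In [RBS1] against rpc128-1007, 12 of 14 mitochondrial genes were lower and 0 higher, with a median of -0.62. By the same test 29.7% of all genes were called, 12.6% as higher and 17.1% as lower, and the all-gene median was -0.01. All 3 [RBS1] libraries lay above all 3 of rpc128-1007 in 0 cytosolic and 0 mitochondrial genes and below them in 7 and 14, where 17.5% of all genes lay above and 20.8% below (38.3% together). MST1 differed most, at -1.03 ± 0.16 (adjusted p = 0.000311), and was at -0.49 (adjusted p = 0.03394) with chromosome medians removed. MSK1 (YNL073W), the mitochondrial lysyl-tRNA synthetase, had 51.99, 42.1 and 46.7 CPM in [PRT1], 42.6, 30.9 and 49.8 in [RBS1], 49.2, 34.1 and 67.6 in [RBS1-R3H], 71.1, 84.9 and 89.9 in rpc128-1007, and 65.2, 72.4 and 77.1 in wt. All its [RBS1] libraries lay below those of rpc128-1007 and of wt, and the log2 fold change was -0.99 ± 0.21 (adjusted p = 0.00279). MSY1 (YPL097W), for tyrosine, had 38.7, 31.8 and 34.96 CPM in [PRT1], 33.5, 29.1 and 34.3 in [RBS1], 40.5, 27.7 and 45.5 in [RBS1-R3H], 52.1, 63.5 and 66.1 in rpc128-1007, and 48.8, 42.01 and 50.6 in wt. NAM2 (YLR382C), the mitochondrial leucyl-tRNA synthetase, which also acts in splicing of mitochondrial introns, had 53.8, 44.8 and 46.03 CPM in [PRT1], 49.4, 38.7 and 46.9 in [RBS1], 57.2, 37.03 and 60.04 in [RBS1-R3H], 71.01, 81.99 and 77.4 in rpc128-1007, and 63.1, 65.1 and 68.6 in wt. In both, [RBS1] lay below rpc128-1007 and wt without overlap. The log2 fold changes against rpc128-1007 were -0.90 ± 0.16 (adjusted p = 0.000734) for MSY1 and -0.77 ± 0.15 (adjusted p = 0.00175) for NAM2. The other 8 calls lay between -0.74 (MSR1) and -0.35 (MSM1). With chromosome medians removed, MSR1 was at -0.52 (adjusted p = 0.001257), and DIA4 lost its call at -0.34 (adjusted p = 0.06548). The calls of MSE1, MSF1 and MSM1 were each lost without rpc128-1007 replicate 2 or 3 or [RBS1] replicate 2, and those of MSE1 and MSF1 also without [RBS1] replicate 1. MSW1 and AIM10 did not pass, at -0.29 and -0.33, and with the replicate block AIM10 did, at -0.35 (adjusted p = 0.02845).

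The cytosolic group had fewer calls in the same comparison. Of 22, 7 were lower and 1 higher than in rpc128-1007, with a median of -0.11. CDC60 had the largest difference, -0.81 ± 0.09 (adjusted p = 3.56e-05), followed by DED81 at -0.54 ± 0.07 (adjusted p = 0.000135), KRS1 at -0.50 ± 0.10 (adjusted p = 0.00201) and YHR020W at -0.42 ± 0.09 (adjusted p = 0.00309). With chromosome medians removed, DED81 was at -0.32 (adjusted p = 0.01105) and YHR020W at -0.20 (adjusted p = 0.1268). DPS1, ILS1 and YDR341C were lower by smaller amounts (-0.40, -0.37 and -0.34), and the libraries of YDR341C overlapped. Without rpc128-1007 replicate 2 or [RBS1] replicate 1 or 3, DPS1 and YDR341C lost their calls, and YDR341C did so without rpc128-1007 replicate 1 too. GUS1, the glutamyl-tRNA synthetase, was the one gene called higher, at 0.23 ± 0.08 (adjusted p = 0.0486), though its libraries overlapped and the call was lost without 5 of the 6 libraries, left out in turn. With the replicate block, ALA1 (-0.21, adjusted p = 0.01014), VAS1 (-0.20, adjusted p = 0.03522), HTS1 (-0.24, adjusted p = 0.02853) and ARC1 (0.17, adjusted p = 0.03022) passed too. Calls over all genes rose with the block as well, to 971 higher and 1249 lower from 737 and 1000. Without [RBS1] replicate 1 or 3, 5 cytosolic genes were called. In replicate 2 of rpc128-1007 and of [RBS1] longer genes stood higher than in the other libraries of the strain (Spearman's rho 0.559 and 0.501 of deviation with length across 5699 genes, which are not independent replicates). Without both of them, 6 mitochondrial genes were called in place of 12.

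Set against wt, [RBS1] had 1 call in the cytosolic group and 3 in the mitochondrial group. CDC60 was the one cytosolic call, lower at -0.37 ± 0.09 (adjusted p = 0.0204), and the cytosolic median was 0.09, while 10.8% of all genes were called, 6.53% as higher and 4.29% as lower. All 3 [RBS1] libraries lay above all 3 of wt in 9 cytosolic and 0 mitochondrial genes and below them in 2 and 9, where 17.2% of all genes lay above and 16.4% below (33.6% together). In the mitochondrial group 3 of 14 were lower, with a median of -0.31: MSK1 at -0.80 ± 0.21 (adjusted p = 0.0294), MSY1 at -0.54 ± 0.16 (adjusted p = 0.0419) and NAM2 at -0.54 ± 0.15 (adjusted p = 0.0366). All 14 mitochondrial fold changes were below 0. These calls were weak, since leaving out single libraries left 0 cytosolic calls ([RBS1] replicate 1 or 3, wt replicate 2 or 3) and 0 or 1 mitochondrial calls ([RBS1] replicate 1 or 2 and wt replicate 2 or 3 gave 0, [RBS1] replicate 3 and wt replicate 1 gave 1).

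**Figure D4:**
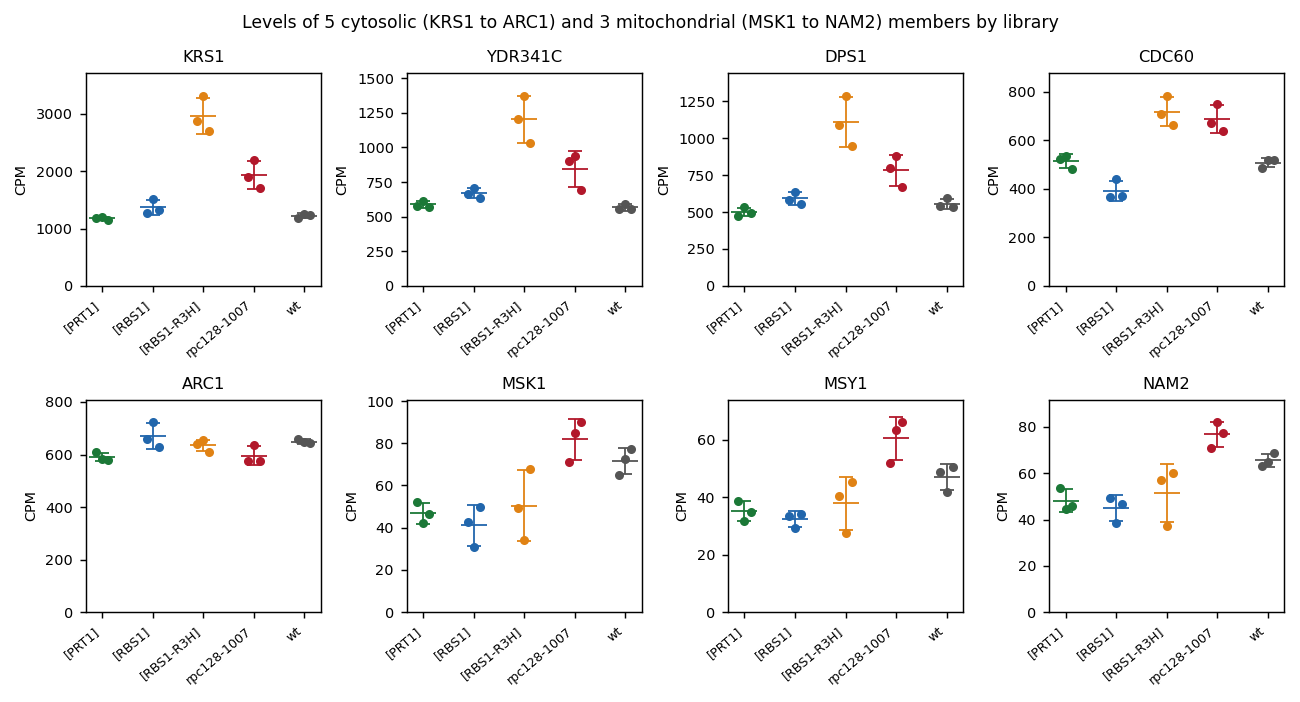
CPM of 8 members in each library, with the mean (horizontal mark) and SD (bars, n = 3) per strain; each axis starts at 0. KRS1, YDR341C and DPS1 are highest in [RBS1-R3H], CDC60 is lowest in [RBS1], ARC1 overlaps between most strains, and the mitochondrial MSK1, MSY1 and NAM2 are highest in rpc128-1007.

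With extra PRT1, most called genes of both groups were lower than in the mutant. In [PRT1] against rpc128-1007, 9 of 22 cytosolic genes were lower and 2 higher (median -0.09), and 8 of 14 mitochondrial genes were lower and 1 higher (median -0.62), while 21.8% of all genes were called, 13.7% as lower and 8.1% as higher, with a median of 0.02. All 3 [PRT1] libraries lay above all 3 of rpc128-1007 in 2 cytosolic and 1 mitochondrial genes and below them in 10 and 10, where 16% of all genes lay above and 17.8% below (33.8% together). KRS1 was at -0.72 ± 0.10 (adjusted p = 9.93e-05), DPS1 at -0.65 ± 0.12 (adjusted p = 0.000851), ILS1 at -0.56 ± 0.09 (adjusted p = 0.00045) and YDR341C at -0.52 ± 0.11 (adjusted p = 0.00366). HTS1, VAS1, CDC60, ALA1 and THS1 followed, between -0.50 and -0.26. THS1 lost its call without 5 of the 6 libraries (all but rpc128-1007 replicate 3) and ALA1 without [PRT1] replicate 3. In the mitochondrial group MST1 was at -1.08 ± 0.16 (adjusted p = 0.000166), or -0.50 (adjusted p = 0.04909) with chromosome medians removed, MSK1 at -0.81 ± 0.21 (adjusted p = 0.0108) and MSY1 at -0.79 ± 0.15 (adjusted p = 0.00183). MSF1 (YPR047W), the mitochondrial phenylalanyl-tRNA synthetase, had 16.1, 20.7 and 19.4 CPM in [PRT1], 23.2, 19.9 and 27.5 in [RBS1], 23.2, 21.6 and 34.03 in [RBS1-R3H], 27.6, 36.6 and 38.5 in rpc128-1007, and 24.5, 27.97 and 33.3 in wt. In [PRT1] it lay below rpc128-1007, [RBS1-R3H] and wt and overlapped with [RBS1], and the log2 fold change against rpc128-1007 was -0.87 ± 0.19 (adjusted p = 0.00398). MSD1, NAM2, SLM5 and ISM1 had values between -0.75 and -0.60. Without [PRT1] replicate 2 the calls of MSK1 and ISM1 were lost, and that of ISM1 also without [PRT1] replicate 3.

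The genes called higher in [PRT1] all lie on chromosome VIII. Against rpc128-1007 they were YHR020W at 0.40 ± 0.09 (adjusted p = 0.00385), DED81 at 0.23 ± 0.07 (adjusted p = 0.0328) and MSR1 at 0.34 ± 0.10 (adjusted p = 0.0282). DED81 lost its call without 5 of the 6 libraries (all but rpc128-1007 replicate 2) and MSR1 without 4 (rpc128-1007 replicate 1 or 2, [PRT1] replicate 1 or 3). DIA4, the mitochondrial seryl-tRNA synthetase, was at 0.10 and not called. All 4 values lay below the median of the other 276 genes of the chromosome, 0.74. With chromosome medians removed their signs turned, to -0.31 (adjusted p = 0.03447) for YHR020W, -0.49 (adjusted p = 0.001081) for DED81, -0.37 (adjusted p = 0.01425) for MSR1 and -0.61 (adjusted p = 0.004423) for DIA4, so that 11 cytosolic and 10 mitochondrial genes were lower and 0 higher. Against wt, [PRT1] had YHR020W at 0.95 ± 0.09 (adjusted p = 3.35e-06), DED81 at 0.79 ± 0.07 (adjusted p = 3.21e-06) and MSR1 at 0.76 ± 0.10 (adjusted p = 0.000137), where the median of the other genes of the chromosome was 0.97. With chromosome medians removed these 3 were at -0.01 (adjusted p = 0.9624), -0.17 (adjusted p = 0.2139) and -0.20 (adjusted p = 0.2062), and DIA4 was at -0.49 (adjusted p = 0.03609), where it had been at 0.47.

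Away from chromosome VIII, no cytosolic gene was called in [PRT1] against wt by edgeR. The 2 cytosolic calls were DED81 and YHR020W, the median was -0.04, and 12% of all genes were called in this comparison, 7.06% as higher and 4.91% as lower. All 3 [PRT1] libraries lay above all 3 of wt in 3 cytosolic and 2 mitochondrial genes and below them in 7 and 8, where 17.7% of all genes lay above and 17.4% below (35.1% together). KRS1 was at -0.06 with overlapping libraries. In the mitochondrial group MSR1 was higher and MSD1, for aspartate, lower, and the median was -0.29. MSD1 (YPL104W) had 40.1, 30.97 and 35.8 CPM in [PRT1], 38.7, 38.9 and 45.1 in [RBS1], 45.7, 42.5 and 65.8 in [RBS1-R3H], 57.02, 59.1 and 62.99 in rpc128-1007, and 48.01, 48.2 and 54.8 in wt. Its [PRT1] libraries lay below those of wt and of rpc128-1007, with a log2 fold change against wt of -0.50 ± 0.15 (adjusted p = 0.0407). MSD1 lost its call without [PRT1] replicate 2 or 3 or any wt replicate, and the count of mitochondrial calls was 1 without [PRT1] replicate 2 or 3 or wt replicate 1 or 2. With chromosome medians removed, MSD1 was at -0.50 and not called, and DIA4, as lower, was the 1 mitochondrial call. With the replicate number as a block, 8 mitochondrial genes were called: NAM2 (-0.44, adjusted p = 0.03498), MSF1 (-0.60, adjusted p = 0.007402), MSK1 (-0.61, adjusted p = 0.02035), MSY1 (-0.42, adjusted p = 0.03706) and SLM5 (-0.39, adjusted p = 0.02545) joined as lower and DIA4 (0.48, adjusted p = 0.004089) as higher. Calls over all genes rose with the block as well, to 627 higher and 602 lower from 413 and 287.

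Setting the 2 enzymes for the same amino acid side by side takes out the amino acid as a difference. There were 15 such pairs for 14 amino acids, the phenylalanine enzyme counting once for each of its cytosolic subunits. In [RBS1-R3H] against rpc128-1007 the cytosolic fold change was above the mitochondrial one in 15 of 15 pairs, with a median difference of 0.62 on the log2 scale. The lysine pair differed most: KRS1 was at 0.62 and MSK1 at -0.70, both called. The call of MSK1 was lost without rpc128-1007 replicate 2 or 3 or [RBS1-R3H] replicate 1 or 2, while that of KRS1 held. The arginine pair was similar, with YDR341C at 0.51 and MSR1 at -0.68, both called. In [RBS1] against rpc128-1007 it was 13 of 15 (median difference 0.40), the exceptions being leucine (CDC60 at -0.81, NAM2 at -0.77) and proline (YHR020W at -0.42, AIM10 at -0.33). In [PRT1] against rpc128-1007 it was 13 of 15 (0.26), the exceptions being arginine and serine, whose mitochondrial genes lie on chromosome VIII, as do the cytosolic genes of the asparagine and proline pairs. After removal of chromosome medians it was again 13 of 15 (0.25), but the exceptions were arginine (YDR341C at -0.53, MSR1 at -0.37) and proline (YHR020W at -0.31, AIM10 at -0.27). In rpc128-1007 against wt, where both groups were on the higher side, it was 8 of 15 (0.04). Against wt it was 13 of 15 in [PRT1] (0.35), 15 of 15 in [RBS1] (0.31) and 15 of 15 in [RBS1-R3H] (0.72), and in [RBS1] against [RBS1-R3H] 5 of 15 (-0.26). The same removal made the count 15 of 15 in [PRT1] against wt and 14 of 15 in [RBS1] against rpc128-1007, and left it as it was in the other 5 comparisons. The difference within a pair was not tested, and comparisons that share a strain share its libraries.

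**Figure D5:**
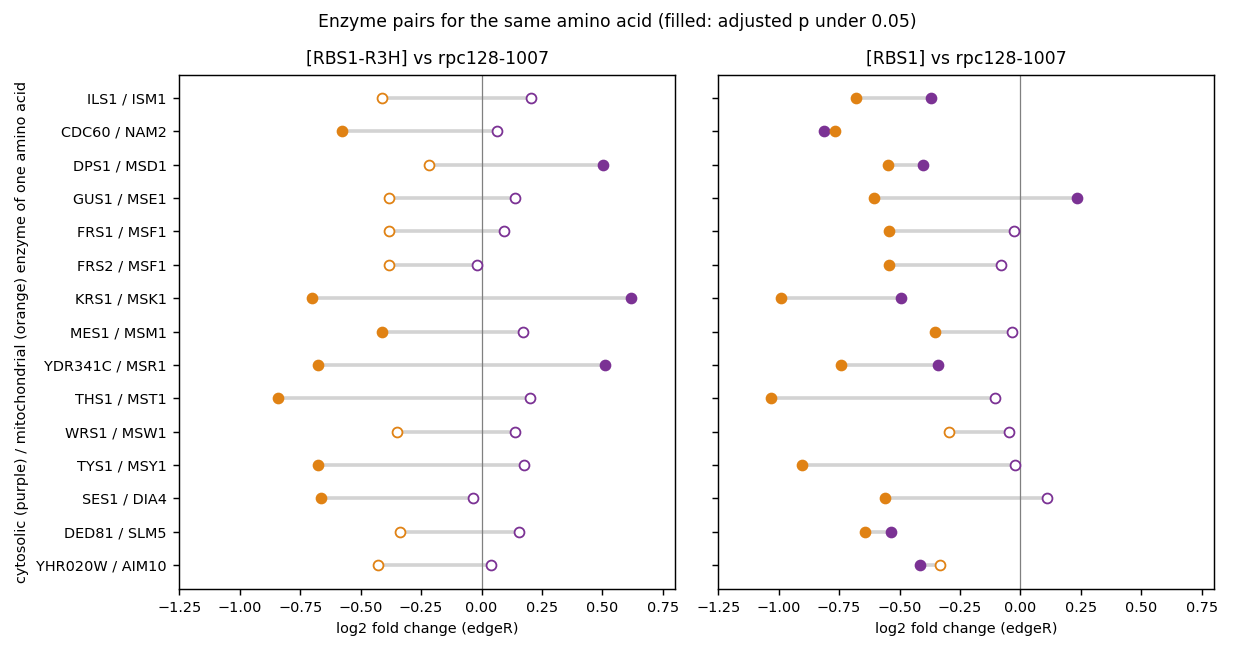
Log2 fold changes of the cytosolic (purple) and mitochondrial (orange) enzyme for each amino acid, in [RBS1-R3H] (left) and [RBS1] (right) against rpc128-1007; filled points have an edgeR adjusted p under 0.05. The purple point is right of the orange one in 15 of 15 pairs on the left and 13 of 15 on the right.

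Not every cytosolic gene followed KRS1. ARC1, GUS1 and MES1 encode a complex in which Arc1 binds tRNA and holds the glutamyl and methionyl enzymes. ARC1 (YGL105W) had 608, 584 and 578 CPM in [PRT1], 659.6, 722 and 628 in [RBS1], 639, 654 and 610.1 in [RBS1-R3H], 576, 637 and 574 in rpc128-1007, and 658, 646 and 643 in wt. The edgeR test without a block called it in none of the 8 comparisons, and its values lay between -0.14 and 0.17. DESeq2 called it higher in [RBS1] than in rpc128-1007, at 0.19 (adjusted p = 0.02545). GUS1 (YGL245W) had 475, 473 and 443 CPM in [PRT1], 552, 616 and 543 in [RBS1], 542, 568 and 493 in [RBS1-R3H], 447, 544 and 464 in rpc128-1007, and 509, 514 and 511 in wt. Its call in [RBS1] against rpc128-1007 was its only one by edgeR without a block. MES1 (YGR264C) had 479, 469.6 and 443 CPM in [PRT1], 444, 527 and 446 in [RBS1], 539.5, 575 and 519.8 in [RBS1-R3H], 474, 534 and 446 in rpc128-1007, and 448, 454 and 427 in wt and was called by that test in [RBS1-R3H] against wt alone.

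Both cytosolic subunits of the phenylalanine enzyme were uncalled by edgeR without a block in all 8 comparisons. FRS1 (YLR060W) had 569, 574 and 573 CPM in [PRT1], 554, 612 and 524 in [RBS1], 595, 651 and 586 in [RBS1-R3H], 543, 645 and 531 in rpc128-1007, and 607, 608 and 557 in wt. FRS2 (YFL022C) had 428, 449 and 405 CPM in [PRT1], 384, 423 and 367 in [RBS1], 406, 422 and 397 in [RBS1-R3H], 385, 468 and 389 in rpc128-1007, and 439, 461 and 426 in wt. Their libraries overlapped between most strains, and their fold changes lay between -0.18 (FRS2, [RBS1] against wt) and 0.09 (FRS1, [RBS1-R3H] against rpc128-1007). GLN4 (glutamine), SES1 (serine), WRS1 (tryptophan) and CRS1 (cysteine) had no call by this test either, which makes 7 cytosolic genes with none, beside AIM10 and MSW1 in the mitochondrial group. In [RBS1-R3H] against wt, DESeq2 called WRS1 at 0.28 (adjusted p = 0.03573) and CRS1 at 0.25 (adjusted p = 0.04989).

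The 5 dual-targeted enzymes, which serve both compartments from one gene, had positive fold changes in [RBS1-R3H] against wt and against rpc128-1007. VAS1 (YGR094W) had 808, 824 and 705 CPM in [PRT1], 888, 1001 and 866 in [RBS1], 1258, 1379 and 1114 in [RBS1-R3H], 1062, 1189.9 and 917 in rpc128-1007, and 825, 849 and 851 in wt. HTS1 (YPR033C) had 321, 316 and 287 CPM in [PRT1], 356, 389 and 356 in [RBS1], 521, 604 and 473 in [RBS1-R3H], 452, 490.5 and 362 in rpc128-1007, and 324, 339 and 329.9 in wt. In both, every [RBS1-R3H] library lay above every wt library. ALA1, VAS1, HTS1 and GRS1 were called higher in [RBS1-R3H] than in wt, at 0.48, 0.57, 0.69 and 0.23, and CRS1 was at 0.25 and not called. As given above, the call of GRS1 was lost without any 1 of 5 libraries, left out in turn. Against rpc128-1007, all 5 had positive values in [RBS1-R3H], between 0.11 (GRS1) and 0.29 (HTS1), where all 14 purely mitochondrial genes had negative ones, though ALA1 was the only one of the 5 that was called. In [PRT1] against rpc128-1007 all 5 were negative and 3 were called. Their median of -0.30 lay between -0.06 for the other 17 cytosolic genes, DED81 and YHR020W of chromosome VIII among them, and -0.62 for the mitochondrial genes. It also lay between in rpc128-1007 and [PRT1] against wt and in [RBS1] against rpc128-1007. It lay above both in [RBS1-R3H] against rpc128-1007 (0.24) and wt (0.48) and in [RBS1] against wt (0.13), and below both in [RBS1] against [RBS1-R3H] (-0.44). GRS2, a paralog of GRS1 that was expressed at a low level, was called in none of the comparisons.

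Genes that act beside the synthetases gave context from lists chosen with the members. GCN4 mRNA was at 1072, 1206 and 1219.9 CPM in [PRT1], 1378, 1296 and 1491 in [RBS1], 1593, 1698 and 1611 in [RBS1-R3H], 1446, 1309 and 1332 in rpc128-1007, and 1035, 1075 and 1061 in wt. Against wt, the log2 fold change was 0.37 ± 0.07 (adjusted p = 0.00281) in rpc128-1007 and 0.63 ± 0.07 (adjusted p = 1.83e-05) in [RBS1-R3H], both higher. [RBS1] was higher than wt as well, at 0.39 ± 0.07 (adjusted p = 0.00451). Against rpc128-1007, [PRT1] had less GCN4 mRNA, at -0.22 ± 0.07 (adjusted p = 0.0387). [RBS1-R3H] exceeded rpc128-1007, at 0.26 ± 0.07 (adjusted p = 0.0309), and [RBS1] was below [RBS1-R3H], at -0.23 ± 0.07 (adjusted p = 0.026). Of GCN1, GCN2 and GCN20, which act in sensing uncharged tRNA, 1 call was made: GCN20 was lower in [RBS1] than in [RBS1-R3H], at -0.26.

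A list of 12 genes of mitochondrial translation and tRNA charging was set beside the mitochondrial synthetases. In [RBS1] against rpc128-1007, 7 of the 12 were lower and 2 higher, with a median of -0.42, where 17.1% of all genes were lower and 12.6% higher. In [PRT1] against rpc128-1007, 5 were lower and 1 higher, with a median of -0.27, where 13.7% of all genes were lower and 8.1% higher. In [RBS1-R3H] against rpc128-1007, 4 were lower and 0 higher, with a median of -0.32, where 6.8% of all genes were lower and 4.67% higher. TUF1, the mitochondrial elongation factor Tu, was lower in [PRT1] (-0.57), [RBS1] (-0.40) and [RBS1-R3H] (-0.44), and so were MEF1, another elongation factor (-0.92, -0.88 and -0.70), and IFM1, an initiation factor (-0.47, -0.77 and -0.45). The 3 subunits of the enzyme that makes mitochondrial glutaminyl-tRNA from glutamyl-tRNA did not move together. In [RBS1] against rpc128-1007, PET112 was lower (-0.65), GTF1 higher (0.37), and HER2 was at -0.26 and not called. MEF2 ran against the group: it was lower in rpc128-1007 than in wt (-0.66) and higher in [PRT1] and [RBS1] than in rpc128-1007 (0.65 in each). SLS1 was higher in rpc128-1007 than in wt (0.84) and lower in [PRT1] and [RBS1] than in rpc128-1007 (-0.50 and -0.44). RRF1 was lower in [RBS1-R3H] than in rpc128-1007 (-0.67), and MRF1 and RRF1 were lower in [RBS1] than in rpc128-1007 (-0.45 and -0.53). Against wt, the calls were RRF1 in [PRT1] (0.77, chromosome VIII), PET112, IFM1, MRF1 and GTF1 in [RBS1] (-0.66, -0.54, -0.46 and 0.43), and MEF2, AIM23 and SLS1 in [RBS1-R3H] (-0.86, -0.44 and 0.50). In [RBS1] against [RBS1-R3H], GTF1 and MEF2 were higher (0.29 and 0.85).

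Few cytosolic elongation and termination factors were called. Of the 10 tested, TEF4, on chromosome XI, was higher in rpc128-1007 than in wt (0.43) and lower in [PRT1], [RBS1] and [RBS1-R3H] than in rpc128-1007 (-0.51, -0.33 and -0.50), and CAM1 was lower in [PRT1] than in rpc128-1007 (-0.32). None of the 10 was called in [RBS1-R3H] against wt, where 14 of 22 cytosolic synthetase genes and 22.9% of all genes were. The median of the 10 there was 0.09. This list holds near-identical copies (TEF1 and TEF2, EFT1 and EFT2), whose reads the counting could have split. DTD1 was higher in [RBS1] than in rpc128-1007 (0.53), and YNL040W was lower in [RBS1] (-0.21) and higher in [RBS1-R3H] (0.30) than in rpc128-1007. YNL040W was also higher in [RBS1-R3H] than in wt (0.36) and lower in [RBS1] than in [RBS1-R3H] (-0.51).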

How the data were processed

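The deposited file held raw counts of reads per gene for 15 libraries, which the authors made by aligning reads with TopHat2 2.0.11 to the Ensembl EF4 yeast genome and counting with GenomicAlignments, without normalization. The counting mode and its use of strand are not given in the sources used here. Counts were analysed in R 4.3.3 with edgeR 4.0.16 (TMM scaling, filterByExpr with a minimum count of 10 and a total of 15, quasi-likelihood test, 1 fit over all 15 libraries), and p-values were adjusted over 5851 of 6600 genes at a threshold of 0.05. CPM used TMM-scaled totals. The members and lists were chosen with earlier results of these data known. Genes with values in every library were the called members with the largest fold changes in each comparison, up to 4 per group (6 cytosolic and mitochondrial each in rpc128-1007 against wt), beside enzyme complexes, dual-targeted enzymes and related genes. Chromosomes and promoters came from RefSeq R64, in which 5917 IDs matched. The 683 others held 0.215% of counts. The labels describe the replicates as biological, and 3 against 3 libraries cannot reach an exact permutation p below 0.1.

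Same-numbered libraries deviated together, with correlations from 0.155 to 0.249 (rpc128-1007 and wt), 0.555 to 0.732 ([RBS1] and rpc128-1007), 0.262 to 0.358 ([PRT1] and wt) and 0.158 to 0.314 ([RBS1] and [RBS1-R3H]). Values of single members with a replicate block are given for these 4 comparisons, whose lowest correlations were the largest. The next was [RBS1-R3H] and rpc128-1007, from 0.0978 to 0.431. Counts of calls with the block are given for other comparisons too. Alternatives were DESeq2 1.42.0, limma-voom (limma 3.58.1), library totals, median-ratio factors, no filter, the block, a length correction, fits of 2 strains, libraries left out, and, chosen after seeing the data, removal of each library's chromosome medians and counts without members of chromosomes VIII and XI. Scripts were tested on simulated data.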

Additional observations from a re-analysis of the deposited data

How the results depend on the processing

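Of 95 member calls, 53 held under every alternative run and 42 were lost or turned their sign under at least 1, while 61 of 193 member results without a call gained one. The sign turned in 66 of 288 member results, 58 of which had no call before or after. The 8 with a call in either fit turned with chromosome medians removed: in [PRT1] against rpc128-1007 DED81 (-0.49), YHR020W (-0.31), MSR1 (-0.37) and DIA4 (-0.61), and in [PRT1] against wt DED81 (-0.17), YHR020W (-0.0102), MSR1 (-0.20) and DIA4 (-0.49). Counts of called cytosolic, then mitochondrial, members without 1 library lay between 7 and 12, and 2 and 3, in rpc128-1007 against wt. They lay between 8 and 11, and 7 and 9, in [PRT1] against rpc128-1007. They lay between 5 and 9, and 9 and 13, in [RBS1] against rpc128-1007. They lay between 2 and 7, and 2 and 12, in [RBS1-R3H] against rpc128-1007. They were 2, and between 1 and 2, in [PRT1] against wt. They lay between 0 and 1 in both groups in [RBS1] against wt. They lay between 12 and 16, and 0 and 5, in [RBS1-R3H] against wt, and between 10 and 14, and 0 and 5, in [RBS1] against [RBS1-R3H].

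With the replicate number as a block, mitochondrial calls numbered 4 in rpc128-1007 against wt, 8 in [PRT1] against wt, 6 in [RBS1] against wt, 3 in [RBS1-R3H] against wt and 1 in [RBS1] against [RBS1-R3H], and cytosolic calls 8 in [RBS1-R3H] against rpc128-1007 and 4 in [RBS1] against wt. The block lost no call of a member. It also raised the calls over all genes in every comparison. In [RBS1] against wt they rose to 624 higher and 542 lower, from 382 and 251. In [RBS1-R3H] against wt they rose to 973 and 917, from 782 and 559. In [RBS1-R3H] against rpc128-1007 they rose to 436 and 605, from 273 and 398. In the 4 comparisons where the numbers were not taken as pairs, 3 of 6 ([PRT1] and rpc128-1007), 6 of 6 ([RBS1-R3H] and rpc128-1007) and 5 of 6 libraries ([RBS1] or [RBS1-R3H] and wt) correlated best with their own number. With chromosome medians removed, mitochondrial calls numbered 0 in rpc128-1007 against wt, 4 in [RBS1-R3H] against rpc128-1007 and 1 in [PRT1] against wt. Cytosolic calls numbered 0 in [PRT1] against wt. With members of VIII and XI not counted, these numbers were the same but not all the genes. In [PRT1] against wt the 1 call was DIA4 with medians removed and MSD1 with those members not counted. In [RBS1-R3H] against rpc128-1007, MSR1 was among the 4 only with medians removed. Fits of only the 2 strains gave 4 cytosolic calls in [RBS1] against rpc128-1007, 1 cytosolic and 1 mitochondrial in [RBS1-R3H] against rpc128-1007, 7 mitochondrial in [PRT1] against wt and 0 cytosolic in [RBS1] against wt. Length correction gave 9 cytosolic calls in [RBS1-R3H] against rpc128-1007, and 7 and 2 mitochondrial calls in [PRT1] and [RBS1-R3H] against wt. Without replicate 2 of both rpc128-1007 and [RBS1], there were 6 mitochondrial calls in [RBS1] against rpc128-1007, 9 cytosolic in [RBS1-R3H] against rpc128-1007 and 0 mitochondrial in [RBS1] against wt. DESeq2 gave 6 mitochondrial calls in [PRT1] against wt.

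Library totals gave 1 mitochondrial call in [RBS1] against wt and 4 in [RBS1-R3H] against wt. They shifted the all-gene median by -0.11 in [RBS1-R3H] against wt and 0.12 in [RBS1] against [RBS1-R3H]. The share of all calls that were higher was then 49.7% in rpc128-1007 against wt (69.4% with TMM), 61.1% in [RBS1] against rpc128-1007 (42.4%), 33.7% in [RBS1-R3H] against wt (58.3%) and 71.8% in [RBS1] against [RBS1-R3H] (48.3%). The cause of these changes was not tested. Mitochondrial genes had lower counts and a larger median standard error than cytosolic genes, and the part of depth in this was not tested.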
